A study of Mus musculus with 12 samples.

Results

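The tricyclic antidepressant amitriptyline (AMI) blocks the reuptake of serotonin and noradrenaline and also binds directly to several receptors of monoamines, histamine and acetylcholine. The RNA of 10 genes that encode such receptors was followed here: the serotonin receptors Htr1a, Htr1b, Htr2a, Htr2c and Htr4, the adrenergic receptors Adra1a and Adra2a, the histamine receptors Hrh1 and Hrh3, and the muscarinic receptor Chrm1. Every probe whose symbol was one of these 10 in both expression tables was taken, which gave 16 of the 25697 probes on the array, for 10 of its 18097 gene symbols. 5 of the genes had more than 1 probe.

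Total RNA came from the hippocampus and the cortex of male 3×TgAD mice, a model of Alzheimer's disease that carries mutant human amyloid precursor protein and tau transgenes, driven by the neuronal Thy1 promoter, with a mutant presenilin knock-in. The AMI group drank amitriptyline-hydrochloride in water at 100 µg per g of body weight for 4 months, from 14 to 18 months of age, and the vehicle group drank water, with 15 mice per treatment. Mice of both treatments were also injected with BrdU, a label of dividing cells, midway through the treatment, and no wild-type mice were on the arrays. Each tissue and treatment was represented by 3 arrays (Illumina mouse bead arrays, 12 in all), and the mouse behind each array was not given in the sources used here, so a p-value measures only the spread between these samples. The comparison of AMI with vehicle asks whether the receptors' RNA levels shifted under long treatment with a drug that binds the receptors, and the comparison of tissues asks where each receptor was expressed.

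All 10 receptors are seven-helix membrane proteins that signal through G proteins. Htr2a, Htr2c, Adra1a, Hrh1 and Chrm1 act mainly through Gq and phospholipase C, Htr4 through Gs and adenylyl cyclase, and Htr1a, Htr1b, Adra2a and Hrh3 through the inhibitory Gi and Go proteins. Several are presynaptic: Htr1b, Adra2a and Hrh3 restrain the release of serotonin, noradrenaline and histamine at nerve terminals. The RNA of such a receptor is made in the cell body, so tissue RNA reports on the neurons whose bodies lie in the tissue and not on the terminals that reach it. In the forebrain Htr1a is known for hippocampal pyramidal cells, Chrm1 for hippocampal and cortical pyramidal cells, Hrh3 for the striatum and the deep cortex, and Htr2c for the choroid plexus.

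Each receptor was read by probes of 50 bases, and what the array could say about a gene came from those probes alone. The first 30 bases of the probes behind the strongest signals and of the overlapping pair of Htr2a probes are given 5′ to 3′, since the results that follow rest on them. Capitals mark the stretch that the Htr2a probes share, as far as the printed bases show it.
Htr1a ILMN_2664762: gctgtatctttccaatgtctgcacctgctg
Adra2a ILMN_1242170: caacctggtttctacttattttaggcagac
Hrh3 ILMN_1256117: ccaagacgatctggggcgatgccctttgct
Htr2a ILMN_2725523: cgcTACGTGGCTATCCAGAACCCCATTCAC
Htr2a ILMN_2725529: TACGTGGCTATCCAGAACCCCATTCACcat

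The deposited annotation placed the Htr1a probe on chromosome 13 (106237347 to 106237396, plus strand), the Adra2a probe on chromosome 19 (54123316 to 54123365, plus strand) and the Hrh3 probe on chromosome 2 (180029420 to 180029469, minus strand). It did not name the genome build of these positions or say whether they lay in coding sequence or an untranslated region. The Htr2a probes shared 47 of their 50 bases with a shift of 3 bases, so they interrogated nearly the same stretch of the transcript and are not independent readings.

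Between 49% and 51.7% of all probes were detected on each array, which means a detection p of 0.05 or less against the negative control beads. Undetected probes had a median signal of 52.2 to 73.2 intensity units per array and detected ones of 162 to 330. Hippocampal replicate 1 stood apart in both treatments on the first principal component (-19.9 under AMI and -17.6 under vehicle, against 5.04 to 12.2 for the remaining 4), and these arrays were the dimmest of that tissue, with mean signals of 271.5 and 318.6 against 447.4 to 567. The labelled tissues matched their markers: of 5 hippocampal marker genes tested, 4 (Prox1, C1ql2, Dsp and Spink8) were higher in the hippocampus in both treatments, and 5 of 7 cortical marker genes tested in vehicle mice and 7 of 8 in AMI mice were lower there. The exceptions were Fezf2, a cortical marker that was higher in the hippocampus in both treatments, the cortical marker Nr4a2, which did not pass in vehicle mice (0.25, limma adjusted p = 0.0823), and the hippocampal marker Wfs1, which was lower there in vehicle mice and did not pass in AMI mice (-0.54, limma adjusted p = 0.109).

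4 of the 10 receptor genes, Htr1a, Htr4, Adra2a and Hrh3, had a probe that was detected on all 12 arrays. 5 genes (Htr2a, Htr2c, Adra1a, Hrh1 and Chrm1) were detected on some arrays only, and Htr1b on none. Of the 16 probes, 4 were detected on 12 arrays, 6 on 1 to 11 and 6 on none. Counted by group, with detection on at least 2 of its 3 arrays, 6 of the 16 probes were detected in the hippocampus of vehicle mice, 5 in that of AMI mice, 4 in the cortex of vehicle mice and 6 in that of AMI mice. At a detection p of 0.01 these counts were 4, 4, 4 and 3: Chrm1, Hrh1 and Htr2c were then detected in no group, and Htr4 was lost from the cortex of AMI mice.

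**Figure D1:**
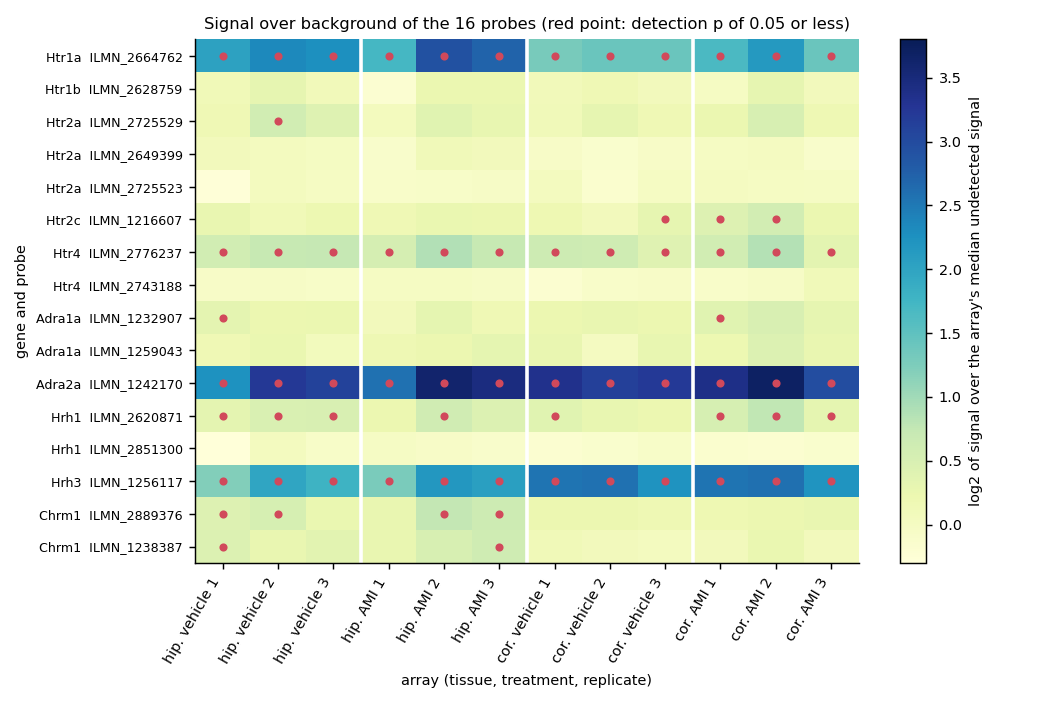
Signal of the 16 probes (rows) on the 12 arrays (columns, in 4 groups of 3), as the log2 of the signal over the array's median undetected signal, with a red point where the detection p was 0.05 or less. The 3 dark rows are Adra2a, Htr1a and Hrh3, the only probes with more than 2 times the median undetected signal on all 12 arrays.

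Only 3 receptors stood well clear of background. Adra2a, the alpha-2A receptor, had 4.72 to 13 times the median signal of undetected probes over the 12 arrays, Htr1a 2.44 to 7.58 times and Hrh3 2.32 to 6 times, each at a detection p of 0 on all 12 arrays. Htr4 was detected on 12 arrays by 1 of its probes, ILMN_2776237, but at 1.28 to 1.84 times the undetected median and with detection p-values from 0.00376 to 0.0288. Its other probe, ILMN_2743188, was detected on none (0.884 to 1.08 times), so the probes of Htr4 disagreed about whether the transcript was present.

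Hrh1, the receptor behind the sedation that AMI causes, was detected by ILMN_2620871 on 8 of 12 arrays, 4 per tissue, at 1.16 to 1.7 times the undetected median, and by its other probe on none. The 8 arrays were 3 vehicle and 1 AMI array of the hippocampus and 1 vehicle and 3 AMI arrays of the cortex. Chrm1 was detected by ILMN_2889376 on 4 arrays and by ILMN_1238387 on 2, and all of these were hippocampal arrays. On the 6 cortical arrays the Chrm1 probes reached at most 1.21 and 1.19 times the undetected median. Htr2c was detected on 3 arrays, all of them cortical: vehicle replicate 3 and AMI replicates 1 and 2. Several calls lay near the threshold, such as Htr2c on cortical vehicle replicate 3 (detection p 0.0489) and undetected Chrm1 ILMN_2889376 on cortical AMI replicate 3 (0.0564). With all probes tested, detected or not, hippocampus minus cortex in vehicle and AMI mice was -0.05 and -0.25 for Htr2c (limma adjusted p = 0.787 and 0.0929). For Chrm1 ILMN_2889376 it was 0.12 and 0.24 (limma adjusted p = 0.455 and 0.157). For Chrm1 ILMN_1238387 it was 0.23 and 0.26 (limma unadjusted p = 0.0352 and 0.0135, adjusted p = 0.166 and 0.0804). Both Chrm1 probes were thus higher in the hippocampus in both treatments, but no adjusted p was under 0.05. These detection counts are therefore not a shown tissue difference.

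The Adra1a probe ILMN_1232907 was detected on 2 arrays (hippocampus of vehicle mice, replicate 1, and cortex of AMI mice, replicate 1) and its other probe on none. Of the 3 Htr2a probes, ILMN_2725529 was detected on 1 array (hippocampus of vehicle mice, replicate 2, at 1.5 times the undetected median), and ILMN_2725523, which shares nearly all of its bases, on none, with at most 1.02 times. The Htr1b probe stayed at 0.873 to 1.23 times the undetected median with detection p-values from 0.113 to 0.916. For these receptors the arrays set at most a lower bound on differences between groups, where only 1 group of a pair had detected arrays. Computed against the lowest detected signal in the dimmer group, the largest was 1.05-fold (Chrm1, hippocampus over cortex in AMI mice). That of Htr2c, cortex over hippocampus in AMI mice, was 1.04-fold. In both, the brighter group was detected on 2 of its 3 arrays, so these are not firm minimum differences. Most other comparisons gave a value under 1, which sets no bound, and how large a difference could be was not bounded.

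**Figure D2:**
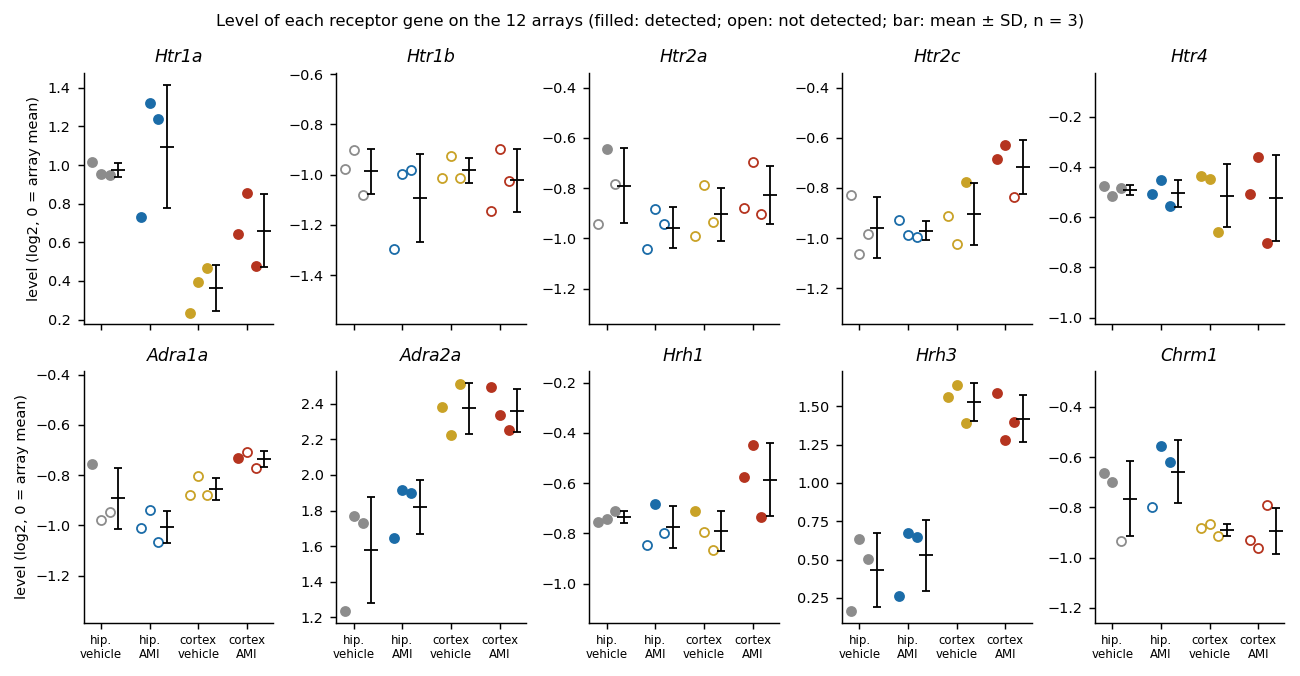
Level of each receptor gene (its probe with the highest mean signal) on the 12 arrays, in log2 units with 0 at the mean of all probes of the array, with filled points where the probe was detected and bars for mean ± SD (n = 3). The vertical scales differ between genes, and Hrh3 and Adra2a sit higher on all 6 cortical arrays than on all 6 hippocampal ones.

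Levels are given in log2 units as the distance of a probe from the mean of all probes on its array, after the spread of each array was made equal. A level is compared only with other levels of the same probe. Htr1a, an inhibitory serotonin receptor of pyramidal cells, had levels of 1.02, 0.95 and 0.95 in the hippocampus of vehicle mice and of 0.73, 1.32 and 1.24 in that of AMI mice. The vehicle arrays lay close together and inside the range of the AMI arrays, of which replicate 1 was the lowest. In the cortex its levels were 0.23, 0.40 and 0.47 under vehicle and 0.64, 0.86 and 0.48 under AMI. All 3 cortical AMI arrays lay above all 3 vehicle arrays, the nearest of them by a small margin.

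Adra2a, which restrains noradrenaline release, had hippocampal levels of 1.23, 1.77 and 1.73 under vehicle and of 1.64, 1.92 and 1.90 under AMI. In both treatments replicate 1 was the lowest, and the groups overlapped. Its cortical levels were 2.38, 2.22 and 2.51 under vehicle and 2.49, 2.34 and 2.25 under AMI, so the cortical groups covered the same range. Hrh3, the presynaptic histamine receptor, had hippocampal levels of 0.16, 0.64 and 0.50 under vehicle and of 0.26, 0.68 and 0.65 under AMI, again lowest on replicate 1. Its cortical levels were 1.56, 1.64 and 1.39 under vehicle and 1.58, 1.28 and 1.39 under AMI. Htr4, which raises cAMP, kept nearly the same mean in the 4 groups, at -0.49 ± 0.02, -0.50 ± 0.05, -0.51 ± 0.13 and -0.52 ± 0.17 (SD, n = 3) in the hippocampus under vehicle and AMI and the cortex under vehicle and AMI.

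No receptor gene passed the test for a change with AMI in the hippocampus. 6 of the 10 passed the filter (detection on at least 3 of the 6 arrays of the tissue) and were tested with limma, and 0 had an adjusted p under 0.05 after Benjamini-Hochberg adjustment over all 13163 probes tested, of which 0% were called. At an unadjusted p under 0.05, 0 of the 6 passed, against 2.35% of all probes, and 0 had groups that did not overlap, against 7.89%. The largest difference was that of Adra2a, at 0.24 (SE 0.16) higher on the log2 scale under AMI with a 95% confidence interval from -0.11 to 0.60 (limma adjusted p = 1). It rested in part on the dim replicate 1: without that vehicle array the difference was 0.072, below those of Chrm1 (0.16) and Htr1a (0.14) in the same fit, and it lay between 0.072 and 0.34 as each array was left out in turn. Htr1a differed by 0.12 (-0.22 to 0.47), Chrm1 by 0.11 (-0.15 to 0.36), Hrh3 by 0.10 (-0.26 to 0.45), Htr4 by -0.01 (-0.21 to 0.18) and Hrh1 by -0.04 (-0.24 to 0.17). Hrh1 passed the filter there mainly through its vehicle arrays, which favoured a difference below 0. The median difference of the 6 was 0.10 against 0.013 for all probes, with 4 above 0 and 2 below. In bulk tissue, fewer cells of a type and less RNA per cell cannot be told apart.

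Hippocampal arrays of the same replicate number deviated together (Pearson r of 0.611, 0.296 and 0.293), so the comparison was also made within numbers. Replicates 2 and 3 were not set apart by number, since their unlike-numbered pairs deviated together with r of 0.28 and 0.167. Adra2a was higher under AMI in all 3 pairs, by 0.41, 0.15 and 0.17, and with the replicate block its unadjusted limma p was 0.0206 and its adjusted p 0.609, while the number of all probes at an unadjusted p under 0.05 went from 309 to 1063. Hrh3 was also higher in 3 of 3 pairs (0.10, 0.04 and 0.15; limma adjusted p = 0.733 with the block). Htr1a was lower under AMI in the pair of replicate 1 (-0.29) and higher in the others (0.37 and 0.29). Without both arrays of replicate 1, which stood apart from the rest, the difference of Htr1a was 0.33 (limma unadjusted p = 0.00833, adjusted p = 0.703) and that of Adra2a was 0.16 (unadjusted p = 0.112, adjusted p = 0.707), with 906 of all probes at an unadjusted p under 0.05. As single arrays were left out, Htr1a ranged from 0.0093 (without AMI replicate 2) to 0.31 (without AMI replicate 1). The part of array brightness in these values was not tested.

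In the cortex the receptor with the lowest p between treatments was Htr1a, at 0.29 higher under AMI (SE 0.12, 95% confidence interval 0.01 to 0.57, 1.23-fold). Its unadjusted limma p was 0.0414 and its adjusted p 0.781, between 0.256 and 1 over the alternatives, so it did not pass. It was 1 of 6 receptor genes tested at an unadjusted p under 0.05 and with groups that did not overlap, against 6.28% and 12.2% of the 12944 probes tested, and 0 of the 6 were called at an adjusted p under 0.05, against 0% of all probes. Its highest level lay on AMI replicate 2, which also had the highest mean signal of the cortical arrays (484.4). Without that array the difference was 0.19 (limma unadjusted p = 0.142). The unadjusted p was also above 0.05 with median centring (0.0786), with all 12 arrays in 1 fit (0.0653), with the methods' t-test and without any one of AMI replicate 1 and vehicle replicates 1 and 2.

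The other cortical differences were smaller or lay near background. Hrh1 differed by 0.21 (95% confidence interval -0.04 to 0.45, limma adjusted p = 0.791), with detection on 1 of 3 vehicle arrays and 3 of 3 AMI arrays. With neqc, which corrects for background, it was 0.38 (limma unadjusted p = 0.0385, adjusted p = 0.717) against 0.32 for Htr1a, and without AMI replicate 2 it was 0.14. Its unadjusted p was also below that of Htr1a with all 12 arrays in 1 fit (0.0483) and with a robust variance trend (0.0431 against 0.0438), so the order of these receptors depended on the setting. Htr2c differed by 0.19 (-0.05 to 0.43, limma adjusted p = 0.807), with detection on 1 of 3 vehicle arrays and 2 of 3 AMI arrays, and by 0.33 with neqc (limma unadjusted p = 0.0749). Both passed the filter largely through their AMI arrays, so a positive difference was favoured by the filter itself. Hrh3 differed by -0.11 (-0.37 to 0.15), Adra2a by -0.01 (-0.27 to 0.25) and Htr4 by -0.01 (-0.28 to 0.26). The median of the 6 was 0.09 against 0.023 for all probes, with 3 above 0 and 3 below.

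**Figure D3:**
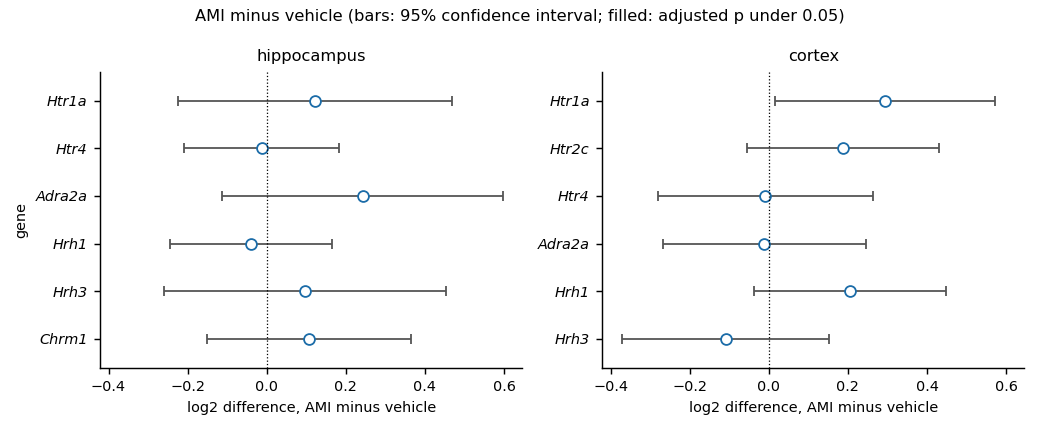
Difference between AMI and vehicle of each receptor gene tested in the hippocampus (left) and the cortex (right), in log2 units with 95% confidence intervals from limma. All points are open, since no adjusted p was under 0.05, and the interval of cortical Htr1a (0.01 to 0.57) is the only one that leaves out 0.

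Several receptors differed between the tissues. In vehicle mice 5 receptor genes were tested and 3 had an adjusted p under 0.05: Htr1a was higher in the hippocampus, and Adra2a and Hrh3 were lower there. Among all 13104 probes tested, 12.3% were called higher in the hippocampus and 8.46% lower. Hrh3 was 2.14-fold lower in the hippocampus (95% confidence interval 1.72 to 2.66, log2 difference -1.10, SE 0.14, limma adjusted p = 0.00179), with group means of 0.43 ± 0.24 and 1.53 ± 0.12 (SD, n = 3). Adra2a was 1.74-fold lower (1.36 to 2.23, log2 difference -0.80, SE 0.16, limma adjusted p = 0.0099), with means of 1.58 ± 0.30 and 2.37 ± 0.14. Htr1a was 1.52-fold higher (1.3 to 1.78, log2 difference 0.61, SE 0.10, limma adjusted p = 0.00485), with means of 0.97 ± 0.04 and 0.37 ± 0.12. The hippocampal and cortical arrays did not overlap for any of these 3 genes. Hrh1 (0.05, 95% confidence interval -0.16 to 0.26) and Htr4 (0.02, -0.20 to 0.25) did not pass.

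AMI mice gave the same signs for Hrh3, Adra2a and Htr1a. Of 5 receptor genes tested, 2 were called lower in the hippocampus and 0 higher, against 12% and 14.7% of the 13193 probes tested. Hrh3 was 1.85-fold lower (1.5 to 2.29, log2 difference -0.89, SE 0.14, limma adjusted p = 0.00179) and Adra2a 1.46-fold lower (1.22 to 1.74, log2 difference -0.54, SE 0.12, limma adjusted p = 0.00853). Htr1a differed by 0.44 (0.07 to 0.80, SE 0.16) with a limma adjusted p of 0.077 and overlapping groups, and without hippocampal AMI replicate 1 its difference was 0.62 at an adjusted p of 0.0072. Hrh1 (-0.19, limma adjusted p = 0.23) and Htr4 (0.02, limma adjusted p = 0.921) did not pass.

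By level, Htr1a ran from the hippocampus of AMI mice (1.10 ± 0.32) through that of vehicle mice (0.97 ± 0.04) and the cortex of AMI mice (0.66 ± 0.19) to the cortex of vehicle mice (0.37 ± 0.12). Hrh3 and Adra2a had the tissues in the other order. They ran from the cortex of vehicle mice through that of AMI mice and the hippocampus of AMI mice to the hippocampus of vehicle mice. In these orders the neighbours of the same tissue did not differ beyond their spread by the adjusted test, and groups that differed in both tissue and treatment were not tested against each other.

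**Figure D4:**
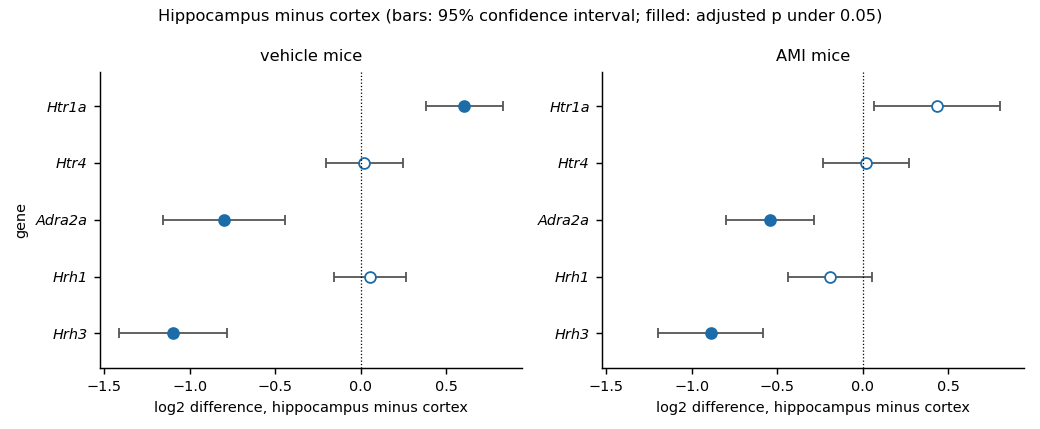
Difference between hippocampus and cortex of each receptor gene tested in vehicle mice (left) and AMI mice (right), in log2 units with 95% confidence intervals from limma and filled points at an adjusted p under 0.05. Hrh3 and Adra2a lie below 0 in both panels, and Htr1a lies above 0, filled in vehicle mice only.

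The tissues were exported in separate tables by different software versions, so an array run and a tissue cannot be told apart. The scaling also mattered. With median centring in place of equal spread, the median of all probes moved from 0.036 to 0.197 in vehicle mice and from 0.022 to 0.211 in AMI mice, and the share of called probes that were higher in the hippocampus from 59.2% to 89.2% and from 55% to 84.3%. Taken relative to that median, Adra2a was at -0.67 in vehicle mice and -0.43 in AMI mice, Hrh3 at -1.09 and -0.90, and Htr1a at 0.55 and 0.43. Against 0, Adra2a then had a limma adjusted p of 0.136 in vehicle mice and 0.561 in AMI mice, and Hrh3 one of 0.0622 in AMI mice.

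The summed level of a list of striatal neuron markers separated the tissues, as did Hrh3. The list held 9 genes on the array, and its summed level, counted in multiples of the mean level of an array, ran from 11 to 14.5 on the hippocampal arrays, from 42.3 to 45.2 on the cortical arrays of vehicle mice and from 28.9 to 39.8 on those of AMI mice. The sum adds levels on the linear scale, so the brightest genes weigh most. Ppp1r1b and Rgs9 had the highest mean levels of the list in the cortex of vehicle mice (4.32 and 3.45). 5 of the 7 genes of the list tested were lower in the hippocampus of vehicle mice and 4 of 7 in that of AMI mice. Among them, Ppp1r1b, the dopamine-regulated phosphatase inhibitor of striatal projection neurons, differed by -2.56 and -2.41, and Rgs9, a striatal regulator of G protein signalling, by -2.42 and -2.03. The striatal adenosine receptor gene Adora2a was detected on 1 of 12 arrays. Foxp1, another gene of the list, was not lower in the hippocampus (1.26 against 1.26 in vehicle mice, 1.44 against 1.24 in AMI mice). Pde10a differed little (-0.33 against -0.07, and -0.37 against -0.14). The cortical marker list also separated the tissues, at 22.1 to 25.1 on hippocampal and 59.5 to 75.2 on cortical arrays. The separation was therefore not particular to striatal markers. In the cortical sum Mef2c weighed most, with mean levels of 5.34 and 5.36 in the cortex of vehicle and AMI mice. Cortical neurons also express Ppp1r1b and Tac1. The microglial list was higher in the hippocampus for 4 of 8 genes tested in vehicle mice and 3 of 8 in AMI mice. The part of the cells in the dissected tissue in the differences of Hrh3, Adra2a and Htr1a was not tested.

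**Figure D5:**
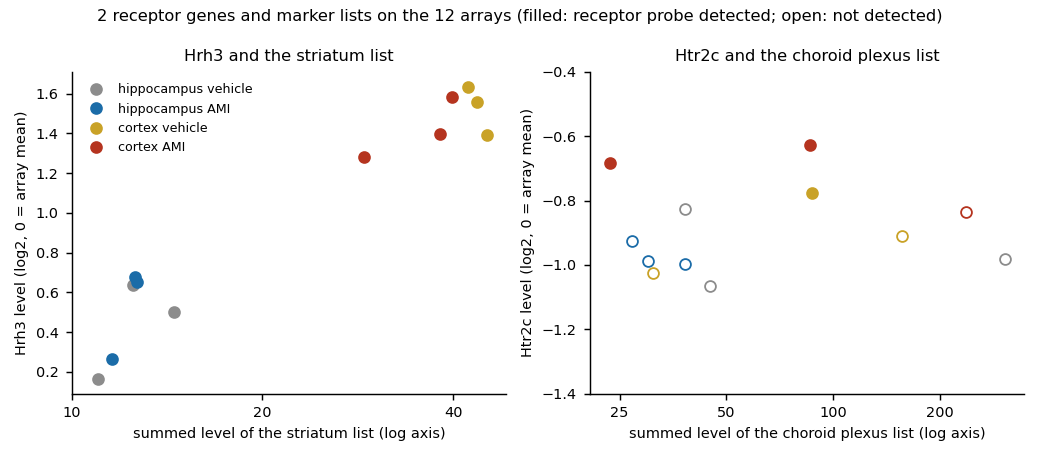
Level of Hrh3 against the summed level of the striatum list (left) and of Htr2c against that of the choroid plexus list (right) on the 12 arrays, coloured by group, with a log horizontal axis and open points where the receptor probe was not detected. The 6 cortical arrays lie at 28.9 or more on the striatum axis and at higher Hrh3, and the array with the highest choroid plexus level, 305, has an undetected Htr2c probe.

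Htr2c is a receptor of the choroid plexus, and the RNA of choroid plexus marker genes differed widely between arrays. The amount of that tissue was not measured. The summed level of 10 choroid plexus genes ran from 38.2 to 305 in the hippocampus of vehicle mice, from 27 to 38.2 in that of AMI mice, from 31.1 to 157 in the cortex of vehicle mice and from 23.4 to 237 in that of AMI mice. Ttr and Enpp2 had the highest mean levels of these genes in each group and weigh most in the sum. On the array with 305, hippocampus of vehicle mice replicate 3, Htr2c had a detection p of 0.18. On the cortical array with 237, AMI replicate 3, its detection p was 0.0739. The 3 arrays on which Htr2c was detected had summed choroid plexus levels of 87.4, 23.4 and 86.2, and the 2 arrays with the highest summed levels were not among them.

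The effect of AMI on the receptors was not shown to differ between the tissues. The interaction of tissue with treatment was tested with limma on 12 arrays for 5 receptor genes, with 0 at an adjusted p under 0.05 and 0 at an unadjusted one, against 0% and 402 of 12993 probes. The difference of AMI and vehicle was larger in the hippocampus than in the cortex by 0.25 for Adra2a (95% confidence interval -0.18 to 0.69) and by 0.21 for Hrh3 (-0.24 to 0.65). It was smaller for Hrh1 (-0.24, -0.53 to 0.04, limma unadjusted p = 0.0898, adjusted p = 1) and for Htr1a (-0.17, -0.62 to 0.27). Hrh1 passed the filter largely through hippocampal vehicle and cortical AMI arrays (3 detected in each, against 1 in each of the other groups). A negative value was therefore favoured by the filter itself. Over the alternatives the Hrh1 value ran from -0.47 to -0.17. With neqc, 1 receptor gene had an unadjusted limma p under 0.05, against 645 of all probes. Without cortical AMI replicate 3 there was also 1, against 411 of all probes. Htr4 gave 0.00 (-0.31 to 0.31).

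The other genes of these pathways were described with 11 lists: the remaining serotonin, adrenergic, histamine and muscarinic receptors, the dopamine receptors, the transporters, the enzymes that make and break down the transmitters, the G protein alpha subunits, the phospholipase C and cAMP arms, the GIRK potassium channels that Gi-coupled receptors open, and the proteins that desensitize receptors. They held 115 genes on the array. Under AMI, 0 of 73 tested were called in the hippocampus by limma, with 5 (6.85%, against 7.89% of all probes) in groups that did not overlap and a median of -0.026. In the cortex 0 of 76 were called, with 10 (13.2%, against 12.2%) in groups that did not overlap and a median of -0.035. At an unadjusted p under 0.05 there were 0 in the hippocampus, against 2.35% of all probes, and 6 in the cortex, against 6.28%.

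Between the tissues, 12 of 78 pathway genes tested in vehicle mice were higher in the hippocampus (15.4%, against 12.3% of all probes) and 16 lower (20.5%, against 8.46%), and in AMI mice 15 of 75 were higher (20%, against 14.7%) and 17 lower (22.7%, against 12%). The lists hold few genes each, so their counts are a description. A gene with no detected array in the dimmer group is given by a bound, computed as for the receptors. Of the other serotonin receptors, 2 of 4 tested were higher in the hippocampus and 1 lower in both treatments. Htr5b was 1.21 and 1.25 higher in vehicle and AMI mice (SE 0.10 and 0.12) and Htr3a, the serotonin-gated ion channel, 0.56 and 0.69 higher, while Htr1d, an inhibitory receptor akin to Htr1b, was lower there. Htr1d was detected on all 6 cortical arrays and 1 hippocampal one, so it passed the filter through the cortex, and it was at least 1.73-fold lower in the hippocampus of vehicle mice. Of 4 other adrenergic receptors, Adra2c, another alpha-2 receptor, was 0.37 and 0.44 higher in the hippocampus, the opposite sign to Adra2a, and Adrb1 was lower there in AMI mice (-0.48). None of 2 other histamine and muscarinic receptors tested in vehicle mice was called, and none of 3 in AMI mice, with medians of -0.09 and -0.20.

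Of 3 dopamine receptors tested, 1 was higher and 2 lower in the hippocampus of vehicle mice, and 1 higher and 1 lower in AMI mice. Drd1a differed by -1.54 and -1.13 and Drd2 by -0.96 in vehicle mice (-0.32 in AMI mice, limma adjusted p = 0.0557). Both also belong to the striatum list. Drd5 was detected on the 6 hippocampal arrays and on 0 cortical ones, and was at least 1.18-fold and 1.1-fold higher in the hippocampus of vehicle and AMI mice. Of the genes that make or break down the transmitters, 2 of 6 tested were lower in the hippocampus of vehicle mice and 1 of 5 in AMI mice. Chat, which makes acetylcholine, was detected on 6 cortical and 2 hippocampal arrays and differed by -1.16 and -0.99, and Ache, which breaks it down, by -0.42 in vehicle mice and 0.09 in AMI mice (limma adjusted p = 0.716). The choline transporter Slc5a7, detected on 0 hippocampal arrays, was at least 1.09-fold lower in the hippocampus of vehicle mice and was not tested in AMI mice. Among the transporters, the low-affinity monoamine transporter Slc29a4 was 1.07 and 0.88 higher in the hippocampus, and 7 of 9 transporter genes were detected on 0 of 12 arrays.

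Downstream of the receptors, Gnao1, which encodes the Go subunit used by Htr1a, Adra2a and Hrh3, was lower in the hippocampus (-0.69 and -0.72), and Gnaq, the Gq subunit, 0.54 and 0.59 higher. Gna14, another subunit of the Gq class, was detected on the 6 hippocampal arrays and on 0 cortical ones and was at least 1.27-fold and 1.22-fold higher in the hippocampus. In the phospholipase C and calcium arm, Itpr2, a calcium release channel, was 0.54 and 0.63 higher in the hippocampus and Prkcd, a protein kinase C, 0.57 higher in AMI mice. 1 of 16 genes of the cAMP arm was higher in the hippocampus of vehicle mice and 5 lower, and 2 and 7 in AMI mice. Adcy9, an adenylyl cyclase, was 1.16 and 1.49 higher, while the phosphodiesterase gene Pde1b differed by -1.13 in vehicle mice, Prkacb, a catalytic subunit of protein kinase A, by -1.02 and -0.90, and Prkar1b, a regulatory one, by -0.69 in AMI mice. Of the desensitization list, 3 of 18 genes were higher and 4 lower in vehicle mice and 3 of 17 higher and 5 lower in AMI mice, among them Rgs4 (-1.03 and -0.94), Adrbk1, the receptor kinase (-0.94 and -0.76), Rgs10 (0.86 in AMI mice) and Rgs6, detected on 0 hippocampal arrays and at least 1.55-fold lower there in vehicle mice. None of 3 GIRK genes tested was called in either treatment.

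For the receptors with a probe detected on all 12 arrays, the genes whose levels followed them most closely over these arrays were found. They were sought among 8505 genes detected on all 12 arrays, as a description, since the arrays share tissue and brightness. For Hrh3 the closest were Tac1, the substance P precursor (Pearson r = 0.984, and 0.902 and 0.809 within the 6 hippocampal and 6 cortical arrays), a gene whose symbol the table holds in the form of a calendar date (ILMN_2828265, r = 0.982, and 0.893 and 0.909) and Gpr172b (r = 0.98, and 0.913 and 0.52). For Adra2a they were Thop1 (r = 0.976, and 0.936 and 0.76), Kbtbd2 (r = 0.97, and 0.924 and 0.812) and Hectd3 (r = 0.964, and 0.817 and 0.909). For Htr1a they were Ccdc90b (r = 0.968, and 0.919 and 0.948), the mitochondrial transcription factor Tfam (r = 0.965, and 0.898 and 0.904) and Ypel1 (r = 0.956, and 0.965 and 0.861). Htr4, whose signal lay near background, was followed most closely by LOC212390 (r = 0.928), Cnot4 (r = 0.892) and Zfyve20 (r = 0.879). Zfyve20 had an r of 0.975 within the cortex and -0.143 within the hippocampus, so its likeness to Htr4 lay in the cortical arrays. Cnot4 had 0.945 and 0.319, and LOC212390 had 0.946 and 0.852.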

How the data were processed

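Total RNA of 12 samples was hybridised to Illumina mouse bead arrays by the authors, who exported the hippocampal and cortical arrays separately (BeadStudio 3.4 and GenomeStudio 1.1.1 per the submitters' processing notes). The deposited values are mean bead intensity per probe, neither normalized nor background-subtracted per the file headers, with a detection p-value for every bead type on each array. Arrays give no read depth, so their number (3 per group) limits the precision, and background compresses low levels.

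Each array's log2 intensities were turned into z scores over all probes (z normalization, which the study's methods use) and rescaled by 1.6, the mean SD over the arrays. No constant was added. Tests needed a probe to be detected (p at or under 0.05) on 3 or more of 6 arrays, or 6 of 12 for the interaction, and used limma 3.58.1 in R 4.3.3 (lmFit, eBayes, 2-sided), with Benjamini-Hochberg adjustment over all tested probes and a threshold of 0.05. An exact permutation test of 3 against 3 arrays cannot give a p under 0.1 and was not run. Tables and figures used Python 3.11.15, pandas 2.3.3, numpy 2.4.6 and matplotlib 3.10.9. The fit was tested on simulated data.

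All probes of the 10 genes are given, and the probe of highest mean signal stands for the gene. The sequences of the Hrh1 probes are not reported here. From the other lists, the genes named are the 3 largest differences at an adjusted p under 0.05 per list and comparison, and marker genes named are examples chosen after their values were seen. Likeness was ranked by Pearson r, 3 genes per receptor. The receptor genes and the lists were chosen with earlier results of these data known.

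Same-numbered arrays deviated together in every pair between the hippocampal groups only (r = 0.611, 0.296 and 0.293). Unlike numbers of replicates 2 and 3 gave 0.28 and 0.167 there, and same numbers in the cortex gave -0.0611, 0.329 and 0.333. Differences within numbers were therefore given for the hippocampus only. The main fits were unpaired in every comparison, and the replicate block was an alternative run for each of them. As alternatives, arrays were quantile-normalized, median-centred or processed with neqc (offset 16), the detection filter was dropped or tightened to 0.01 on every array, variances were given a robust trend, 12 arrays were fitted together, the replicate number was a block, the methods' t-test was used, and each array was left out. Leaving out replicate 1 of both hippocampal groups, and detection counts at 0.01, were chosen after seeing the data.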

Additional observations from a re-analysis of the deposited data

How the results depend on the processing

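AMI called no receptor gene in either tissue, and the interaction called none, under every alternative run. The replicate block changed no call of a receptor gene: with it, the tissue difference of Hrh3 in vehicle mice kept an adjusted p of 0.00627 and that of Adra2a one of 0.0186. Between tissues, the number of receptor genes lower in the hippocampus of vehicle mice went from 2 to 1 with median centring (Adra2a at -0.476) and to 1 with the methods' t-test (Adra2a at -0.797, adjusted p = 0.085). In AMI mice it went from 2 to 0 with median centring (Adra2a at -0.218, Hrh3 at -0.685) and to 1 with the methods' t-test. The number higher in AMI mice went from 0 to 1, Htr1a, with quantile normalization (0.363), neqc (0.452) and all 12 arrays in 1 fit (0.436), and ranged from 0 to 1 when single arrays were left out, where it was 1 without hippocampal AMI replicate 1. For the other counts of receptor genes, leaving out an array changed nothing. Probes detected in the cortex of AMI mice went from 6 to 3 at a detection p of 0.01.

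Small differences changed sign. Adra2a in the cortex was 0.067 with median centring and between -0.086 and 0.058 when single arrays were left out. Htr4 between tissues in vehicle mice was -0.018 with quantile normalization and -0.030 with neqc, and its interaction was 0.041, 0.0091 and 0.078 with quantile normalization, median centring and neqc. When single arrays were left out, Htr4 ranged from -0.040 to 0.014 for AMI in the hippocampus, from -0.091 to 0.081 in the cortex, from -0.050 to 0.062 and from -0.071 to 0.10 between tissues in vehicle and AMI mice, and from -0.093 to 0.079 for the interaction, Hrh3 in the hippocampus from -0.039 to 0.23, and the interaction of Htr1a from -0.28 to 0.012.

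Over all genes, those higher in the hippocampus of vehicle mice numbered 1441, 2310 with median centring, 641 with the methods' t-test and 643 to 1490 with an array left out, and those lower 987, 282, 401 and 559 to 1055. In AMI mice the higher numbered 1756, 1059, 840 and 849 to 2104, and the lower 1384, 188, 579 and 682 to 1333. Under AMI, the cortex had 0 genes called, 2 higher with neqc, 1 higher and 1 lower with a trend with robust variances and 0 to 1 lower with an array left out, and the hippocampus 0 to 1 lower with an array left out. The cause of these shifts was not tested. A block for the BeadChip was not run, since the headers name no chip, and averaging the detected probes of a gene equals the reported values, since no gene had more than 1 probe tested. With 3 arrays per group and no background subtraction, differences of the receptors near background are compressed, and those of Hrh1 and Htr2c in the cortex were larger with neqc (0.38 and 0.33 against 0.21 and 0.19): detected Htr4, Hrh1, Chrm1, Htr2c, Adra1a and Htr2a signals were at most 1.84 times the undetected median.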
